A study of Sus scrofa with 24 samples.

Results

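The genes described here encode the protein parts of the cytosolic ribosome in longissimus dorsi, the main loin muscle of the pig. They were taken by symbol: probe sets with exactly 1 gene symbol of the form RPL or RPS followed by a digit, or RPLP0, RPLP1, RPLP2 or RPSA, leaving out the RPS6K kinases, with the brightest probe set standing for each gene. The rule found 64 of the 6765 genes that had a probe set of their own, and 61 of the 64 passed the filter on low signals. They comprised 31 large subunit proteins (29 tested), 24 small subunit proteins (23 tested) and the 3 stalk proteins. A further 5 were related by sequence to ribosomal proteins and are called near-copies here (RPL7L1, RPL22L1, RPL26L1, RPL36AL and RPS27L). The remaining member, RPS19BP1, fits the letters of the rule but encodes a protein that binds RPS19 and is not part of the ribosome. Thus 60 of the tested genes were ribosomal protein genes or near-copies of them. A further 20 symbols of the same form in the RefSeq pig annotation were not matched to a probe set of a single symbol, among them RPL3L, RPL10, RPL36A and RPS3, and were not analysed here.

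Muscle RNA came from 24 crossbred pigs (Landrace × Large White × Duroc), 1 array per pig. Feed carried 3.0% of coconut oil, olive oil, soybean oil or beef tallow, and each fat was given to 3 barrows (castrated males) and 3 gilts (young females), so that there were 6 pigs per fat and 12 per sex. The trial held 72 pigs in 24 pens, 3 to a pen and 6 pens to a fat, and pigs entered it at about 71 kg and 130 days of age. The labels do not tie the sampled pigs to pens, so each pig counted as independent, and p-values measure the spread between pigs only. Values are the deposited signals, in linear units that depend on the probe as well as on the RNA, and differences are on the log2(signal + 1) scale.

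Ribosomal proteins are made in near-equal numbers, because each ribosome carries mostly a single copy of each. Their mRNAs begin with a stretch of pyrimidines, the TOP motif, through which the kinase mTOR, together with the RNA-binding protein LARP1, sets their translation as a group according to nutrients and growth factors. In muscle, ribosome content is a main limit on protein synthesis and growth, and in mice and humans striated muscle also uses RPL3L, a muscle form of RPL3.

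Arrays were scaled to a common trimmed mean of 500.1 to 500.2, but their medians lay between 139 and 174 and their plain means between 810 and 939. Of 10 skeletal muscle markers 8 were tested, and none passed the test in any comparison; their summed signal lay between 234437 and 408562 over the 24 pigs. Markers of other cells differed more. Summed signals of 8 fibroblast markers lay between 21503 and 29247 with coconut oil, 25380 and 46712 with olive oil, 26943 and 39019 with soybean oil, and 27041 and 70042 with beef tallow, and 6 of the 8 passed the test as lower in coconut oil pigs than in beef tallow pigs. Summed signals of 8 adipocyte markers lay between 6690 and 12002 with coconut oil, 7582 and 46192 with olive oil, 13344 and 30867 with soybean oil, and 8706 and 40333 with beef tallow, and 1 of the 8, FABP4, passed as lower in coconut oil pigs than in beef tallow pigs. Between the sexes these adipocyte sums had a lowest, median and highest of 6690, 11998 and 33338 in barrows, against 8706, 18570 and 46192 in gilts, and 1 marker, LIPE, passed as lower in barrows. Of all tested probe sets, 1.17% passed between coconut oil and beef tallow and 4.83% between the sexes. Tested leukocyte (5 of 14), endothelial (8 of 8) and erythrocyte (2 of 7) markers had 0 calls in limma in any comparison. The part of these cells in the results below was not tested, and in bulk muscle fewer cells of a type cannot be told apart from less RNA per cell. Pigs 11, 12 and 16 stood apart: their arrays correlated least with the rest (means of 0.912, 0.917 and 0.915, where the median of all 24 was 0.928), and values without them are given beside the results they touch most. Pig 16 also had the highest log2 ratios of the end probe sets of actin (1.84) and GAPDH (0.32), measures of RNA integrity, of all 24 pigs, and their part in its values was not tested.

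No ribosomal protein gene passed the test between any 2 fats, between the sexes, over the 4 fats together or for the interaction of fat and sex. The tests were fitted with limma on all 14399 tested probe sets, and a call needed a Benjamini-Hochberg adjusted p under 0.05 over all of them. For coconut oil minus beef tallow, 0 of the 61 members passed where 168 of all probe sets (1.17%) did, and 3 members had an unadjusted p under 0.05 (4.92%, against 19.9% of all probe sets). For barrow minus gilt, 0 of 61 passed where 696 of all probe sets (4.83%) did, and 4 members had an unadjusted p under 0.05 (6.56%, against 21.1%). In the other 5 pairs of fats and in both F tests, 0% of all probe sets passed. Unadjusted p lay under 0.05 for 1 member in olive oil minus beef tallow (6.47% of all probe sets), 0 in soybean oil minus beef tallow (3.46%), 1 in olive oil minus coconut oil (8.9%), 2 in soybean oil minus coconut oil (13.1%) and 0 in soybean oil minus olive oil (3.2%). The F test over the 4 fats had 2 such members, RPL3 and RPL36AL, with a smallest adjusted p of 0.243, where 11.7% of all probe sets had one. The interaction test had 1, RPL3, with an adjusted p of 0.781, where 6.12% of all probe sets had one.

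Effect sizes could be bounded for most members. The 95% confidence interval of the difference lay within 1.5-fold in either direction for 56 of 61 members in coconut oil minus beef tallow, against 47.6% of all tested probe sets. It did so for 59 members in olive oil minus beef tallow (59.5% of all probe sets) and 60 in soybean oil minus beef tallow (63%). Among the oils it did so for 58 members in olive oil minus coconut oil (55.5%), 56 in soybean oil minus coconut oil (52%) and 59 in soybean oil minus olive oil (63.5%), and between the sexes for 60 (75%). All 23 small subunit genes and all 53 members with a mean signal above 10000 had such an interval in every one of the 7 comparisons. Of the 311 other probe sets that bright, 71.7% had one in coconut oil minus beef tallow. Against beef tallow the share was 84.2% for olive oil and 88.1% for soybean oil. It was 76.8% in olive oil minus coconut oil, 74.9% in soybean oil minus coconut oil and 89.7% in soybean oil minus olive oil. Between the sexes it was 85.5%. Members without such an interval in some comparison were RPL3, RPL37, RPS19BP1 and the near-copies RPL22L1, RPL36AL and RPS27L, all with mean signals under 10000.

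**Figure D1:**
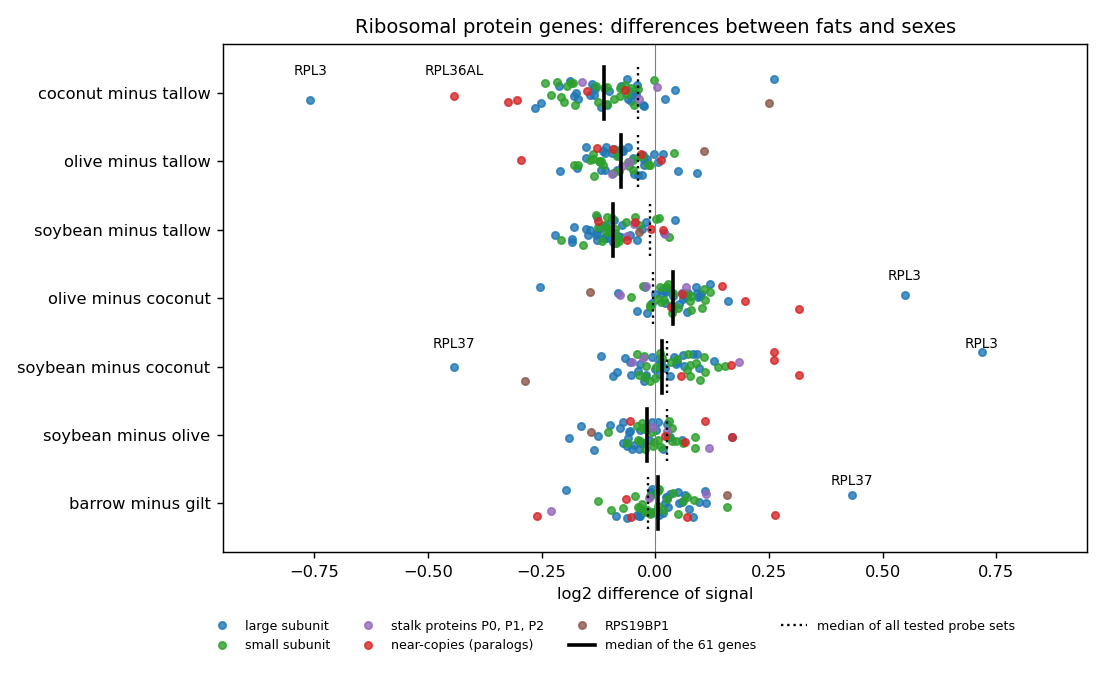
Each point is 1 of the 61 genes; the horizontal axis is the log2 difference of signal, and the rows are the 6 pairs of fats and barrow minus gilt. The bars are the members' medians, from -0.11 in coconut oil minus beef tallow to 0.04 in olive oil minus coconut oil, and the dotted lines are the medians of all tested probe sets. RPL3, at -0.76 in coconut oil minus beef tallow, lies outside the other members, and no point passed the test.

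Among the large subunit genes, RPL3 had the smallest p of any member for coconut oil minus beef tallow. RPL3 sits at the base of the peptidyl transferase centre, where peptide bonds are formed. In barrows its signal was 2483, 3253 and 2913 with coconut oil, 3685, 4887 and 4195 with olive oil, 5098, 4593 and 4860 with soybean oil, and 10423, 6697 and 4923 with beef tallow. In gilts it was 3580, 5224 and 3476 with coconut oil, 5879, 4064 and 8302 with olive oil, 4991, 6205 and 8584 with soybean oil, and 3694, 6077 and 4645 with beef tallow. All 3 coconut oil barrows lay below every other pig, the coconut oil and beef tallow gilts overlapped, and the 3 highest signals belonged to pigs 16, 11 and 12, whose arrays stood apart.

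The RPL3 difference was -0.76 ± 0.20 for coconut oil minus beef tallow (log2, SE; 95% interval -1.18 to -0.34; 1.69-fold lower), with an adjusted p of 0.061 in limma. It was 0.72 ± 0.20 for soybean oil minus coconut oil (adjusted p = 0.255) and 0.55 ± 0.20 for olive oil minus coconut oil (adjusted p = 0.552). All 3 differences used the same 6 coconut oil pigs. Within the sexes, coconut oil minus beef tallow was -1.29 ± 0.28 in barrows and -0.23 ± 0.28 in gilts, and the interaction did not pass (adjusted p = 0.781). Without pig 16 the overall difference was -0.61, with an adjusted p of 0.14, and without pigs 11, 12 and 16 together it was -0.61, with an adjusted p of 0.0578. The call turned on small choices: the adjusted p was 0.0451 with a stricter signal filter, 0.0493 with a trended and robust spread, 0.0132 with array weights, and 0.0419, 0.0375, 0.0314 and 0.025 without pig 2, 7, 12 or 24. Pig 16, highest for RPL3, had the highest fibroblast marker sum (70042), and the highest sum among the 6 coconut oil pigs was 29247. Pig 11, with an RPL3 signal of 8584, had a fibroblast sum of 32458, and pig 9, with 6205, had 26943. Adipocyte marker sums were 18596 in pig 16 and 46192, the highest, in pig 12, and at most 12002 with coconut oil. Whether those cells have a part in the RPL3 values was not tested.

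RPL17, which lies near the exit of the peptide tunnel, was the only other large subunit gene with an unadjusted p under 0.05 in that comparison. Its lowest, median and highest signals were 23282, 25559 and 29875 with coconut oil, against 26338, 29054 and 37009 with beef tallow. The groups overlapped, and the difference was -0.25 ± 0.11 (adjusted p = 0.224). RPL35 had 16478, 17868 and 21746 with coconut oil, against 18139, 20355 and 28510 with beef tallow, a difference of -0.27 ± 0.14 (adjusted p = 0.288). In both genes the highest value belonged to pig 16, and without that pig the differences were -0.19 (adjusted p = 0.42) and -0.17 (adjusted p = 0.535).

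RPL5, which carries the smallest ribosomal RNA into the large subunit, spread little between pigs, with 19132, 20677 and 21979 with coconut oil, against 20070, 22951 and 28458 with beef tallow (difference -0.19 ± 0.11, adjusted p = 0.347). RPL22, an RNA-binding protein of the outer surface of the subunit, had 22764, 24163 and 28602 with coconut oil, 22302, 24578 and 30489 with soybean oil, and 25119, 27478 and 33307 with beef tallow. Its difference was -0.18 ± 0.11 for both oils against beef tallow, with adjusted p of 0.384 for coconut oil and 1 for soybean oil. RPL38, known in mice for its part in translating Hox mRNAs, had 20472, 22854 and 26729 with coconut oil, against 22786, 26029 and 30464 with beef tallow (difference -0.17 ± 0.11, adjusted p = 0.394). All of these ranges overlapped.

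Large subunit genes with almost no difference were also present. RPL7 had 24427, 25757 and 30165 with coconut oil, against 25306, 27067 and 29526 with beef tallow, a difference of -0.05 ± 0.11 with a 95% interval of -0.27 to 0.18. RPL27 ran from 18936 to 21311 with coconut oil, against 12979 to 22956 with beef tallow, where pig 16 gave the lowest value of all 24 pigs. A second RPL27 probe set of nearly equal brightness gave -0.07, against 0.04 for the one used, and without pig 16 the one used gave -0.06, so neither its sign nor its size was settled. RPL15, RPL29, RPL31 and RPL34 had differences between -0.18 and 0.09 in every pair of fats, each with an adjusted p of at least 0.563.

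The 23 tested small subunit genes gave small and similar differences. Their differences for coconut oil minus beef tallow ran from -0.24 to 0.00, all 23 of them on the negative side as deposited, with a median of -0.11 and a smallest adjusted p of 0.262. For olive oil minus beef tallow 22 of 23 were negative (median -0.09), for soybean oil minus beef tallow 20 of 23 (median -0.09). Between the sexes 12 of 23 were negative (median -0.01). The fat comparisons use the same 6 beef tallow pigs, and their signs depend on how arrays are scaled, as described below.

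RPS27, a zinc-binding protein of the small subunit, had the smallest p of these genes for coconut oil. Its lowest, median and highest signals were 15450, 17125 and 19872 with coconut oil, against 17977, 20294 and 24646 with beef tallow, a difference of -0.24 ± 0.12 (adjusted p = 0.262). RPS27A, which is made as a fusion with ubiquitin, had 24439, 27906 and 35089 with coconut oil, against 28618, 30813 and 40295 with beef tallow (difference -0.23 ± 0.12, adjusted p = 0.288). A second, dim RPS27A probe set (mean signal 741, against 30448) gave -0.77 for coconut oil minus beef tallow (adjusted p = 0.076) and 0.89 for soybean oil minus coconut oil (adjusted p = 0.255). The chosen probe set gave 0.07 for soybean oil minus coconut oil, so in both comparisons the signs were the same and the sizes differed several-fold. For soybean oil minus beef tallow the signs were opposite (-0.16 for the chosen probe set, 0.12 for the dim one). RPS12 had 19687, 20005 and 23188 with coconut oil, against 20619, 22578 and 28453 with beef tallow (difference -0.21 ± 0.12, adjusted p = 0.332).

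RPS6 is the small subunit protein that S6 kinases phosphorylate when mTOR is active. Its mRNA signal was 24994, 26440 and 30139 with coconut oil, 21614, 26917 and 31894 with olive oil, 22443, 26855 and 29935 with soybean oil, and 25019, 26599 and 36008 with beef tallow. Medians of the 4 fats thus lay close together, and the coconut oil minus beef tallow difference was -0.08 ± 0.12, with a 95% interval of -0.33 to 0.17. RPS4X, encoded on the X chromosome, was 16681, 18809 and 25118 in barrows, against 17324, 19021 and 23893 in gilts, a difference of -0.03 ± 0.08 (adjusted p = 0.881). RPSA, which also occurs at the cell surface as a laminin-binding protein, was 13558, 16068 and 18758 in barrows, against 14591, 16841 and 23378 in gilts, a difference of -0.13 ± 0.09 (adjusted p = 0.426). In neither gene were the sexes apart.

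RPS25, known from yeast and human cells for its role in initiation at internal entry sites, spread most among the bright small subunit genes, with a standard deviation within groups of 0.26. It ran from 21445 to 23757 with coconut oil, 20694 to 31167 with olive oil, 13730 to 30015 with soybean oil and 17097 to 33815 with beef tallow. The lowest 2 values belonged to pigs 11 and 16, whose arrays stood apart, and the coconut oil minus beef tallow difference was -0.08 ± 0.16 (adjusted p = 0.817), or -0.17 (adjusted p = 0.61) without pig 16. Without pigs 11, 12 and 16 the standard deviation was 0.19. RPS23, a protein of the decoding centre, spread least of all members, with a standard deviation of 0.14, and had a difference of -0.13 ± 0.11 (adjusted p = 0.536). RPS18, RPS20 and RPS24 had differences between -0.21 and 0.08 in every pair of fats, each with an adjusted p of at least 0.411; for RPS18 coconut oil minus beef tallow was -0.20, or -0.09 without pig 16.

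The stalk proteins RPLP0, RPLP1 and RPLP2 form the flexible arm that recruits the elongation factors. RPLP0 had 28007, 30295 and 33864 with coconut oil, against 25959, 29820 and 35712 with beef tallow (difference 0.00 ± 0.14, adjusted p = 0.993), and RPLP1 had 27274, 29426 and 36950 with coconut oil, against 27832, 30442 and 37471 with beef tallow (difference -0.04 ± 0.12, adjusted p = 0.898). The fats gave nearly the same values in both. RPLP2 was the stalk gene with an unadjusted p under 0.05 between the sexes: it had 7849, 9362 and 11111 in barrows, against 8532, 11258 and 14012 in gilts, a difference of -0.23 ± 0.09 (adjusted p = 0.153). RPLP1 went the other way, at 0.11 ± 0.09 (adjusted p = 0.499), and RPLP0 was at -0.01 ± 0.10 (adjusted p = 0.958).

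Near-copies held several of the larger differences. RPL36AL, encoded by a copy of RPL36A, had 3327, 4398 and 5760 with coconut oil, 3954, 4428 and 6832 with olive oil, 4419, 5583 and 7009 with soybean oil, and 5120, 5915 and 7227 with beef tallow. Most coconut oil pigs lay below all beef tallow pigs, but the ranges overlapped through pig 5. The difference was -0.44 ± 0.14 for coconut oil minus beef tallow (adjusted p = 0.0918), -0.30 for olive oil minus beef tallow (adjusted p = 0.768) and 0.32 for soybean oil minus coconut oil (adjusted p = 0.345). With array weights the first of these passed (adjusted p = 0.0379). Between the sexes RPL36AL had 3327, 4518 and 6103 in barrows, against 4226, 5853 and 7227 in gilts, a difference of -0.26 ± 0.10 (adjusted p = 0.132).

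RPL22L1, a near-copy that can take the place of RPL22 and is known in mice to increase when RPL22 is lost, had 3561, 4360 and 5265 with coconut oil, 4310, 5356 and 7047 with olive oil, 3829, 5381 and 6419 with soybean oil, and 4930, 5340 and 5959 with beef tallow. Differences were -0.30 ± 0.15 for coconut oil minus beef tallow (adjusted p = 0.277) and 0.32 ± 0.15 for olive oil minus coconut oil (adjusted p = 0.559). RPS27L, a near-copy of RPS27, had 4108, 4702 and 6283 in barrows, against 2930, 4218 and 6378 in gilts. Barrows were on average 0.26 ± 0.12 higher on the log2 scale (adjusted p = 0.229), with full overlap of the ranges. By fat its lowest, median and highest were 2930, 4206 and 4684 with coconut oil, against 4169, 4794 and 6283 with beef tallow, a difference of -0.32 ± 0.18 (adjusted p = 0.309). RPL26L1, and RPL7L1, whose protein acts in ribosome assembly, stayed between -0.15 and 0.17 in all 7 comparisons, each with an adjusted p of at least 0.475.

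**Figure D2:**
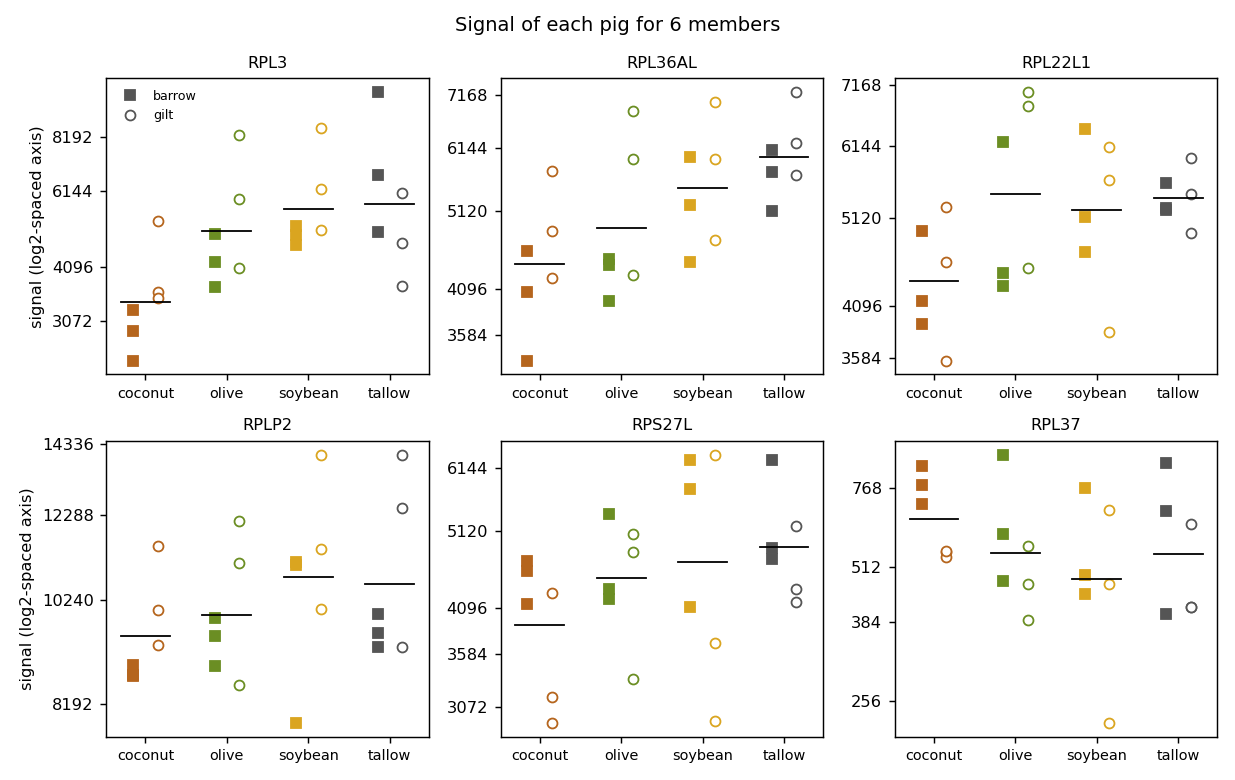
Signal of each pig (vertical axis, log2-spaced) for RPL3, RPL36AL, RPL22L1, RPLP2, RPS27L and RPL37, by dietary fat; squares are barrows, circles gilts and lines the mean of each fat on the log scale (n = 6). For RPL3 the 3 coconut oil barrows lie at 2483 to 3253, below every other pig, and in all 6 genes the fats overlap.

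RPL37, a large subunit gene, was dim on this array (mean signal 580) and had the widest spread within groups, 0.45. It had 401, 694 and 913 in barrows, against 228, 503 and 688 in gilts, a difference of 0.43 ± 0.17 (adjusted p = 0.149). Barrows were the higher sex within each fat, by 0.51 with coconut oil, 0.45 with olive oil, 0.40 with soybean oil and 0.37 with beef tallow, though ranges overlapped over all 12 pigs per sex. Its highest and lowest fats were coconut oil, with 537, 630 and 861, and soybean oil, with 228, 480 and 769 (soybean oil minus coconut oil -0.44, adjusted p = 0.442). RPS19BP1 had 421, 528 and 749 with soybean oil, against 516, 671 and 888 with coconut oil, a difference of -0.29 (adjusted p = 0.424). RPL26, RPL30 and RPS15A were below the filter, with signals of 30.4 to 118.6, 30.2 to 158.5 and 1.83 to 65.4 over the 24 pigs, and no difference is given for them.

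Members varied little between pigs given the same fat and of the same sex. The standard deviation within the 8 combinations of fat and sex had a median of 0.181 on the log2 scale over the 61 members, or 1.13-fold, against 0.319 over all tested probe sets, and 0.255 over the 311 other probe sets with a mean signal above 10000. For 59 of 61 members it was under the median of all probe sets, RPL37 and RPL3 being the exceptions. After quantile normalization, which gives every array the same distribution of signals, the members' median was 0.118 and 55 of the 61 had a lower spread, while all probe sets stayed at 0.318. RPL3, RPL37, RPS27L, RPL22L1 and RPS25 had spreads above 0.25 on both scales.

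**Figure D3:**
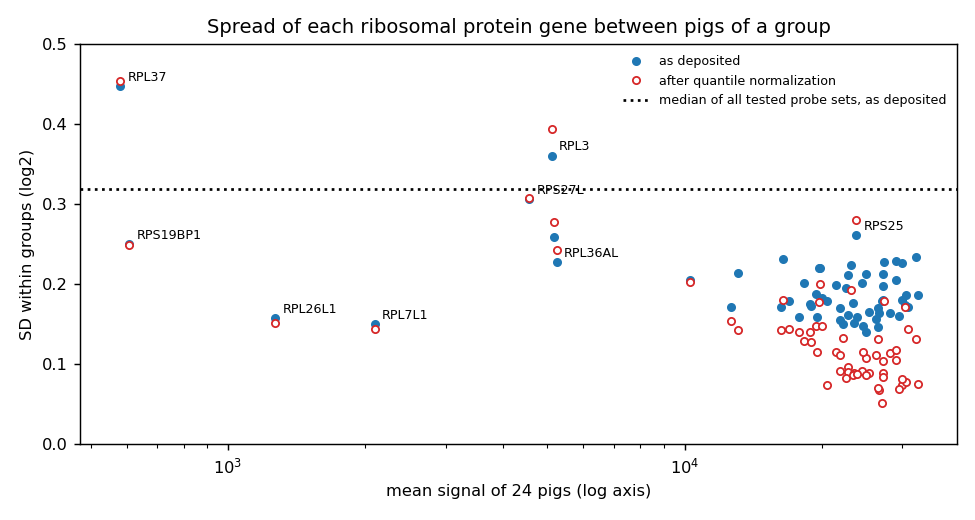
Standard deviation within groups (vertical axis, log2) of each of the 61 genes against its mean signal over 24 pigs (log axis); filled points are signals as deposited and open points the same after quantile normalization. The dotted line is the median of all tested probe sets as deposited, 0.319, and RPL37 and RPL3 are the genes above it.

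Much of the variation over all pigs, differences between the groups included, was shared by the members. Over the 24 pigs, the correlation between 2 members had a median of 0.622 (quartiles 0.347 and 0.763, 1830 pairs), and 94.3% of pairs were above 0, where the 311 other bright probe sets had a median of 0.28 and all tested probe sets 0.00. Members share array, scaling and brightness, and after quantile normalization the medians were 0.38 for members and 0.01 for the other bright probe sets. A member's correlation with the mean of the other 60 had a median of 0.826, and was above 0.7 for 43 of them. RPS10 (0.937), RPS23 (0.934) and RPL32 (0.929), picked here for their rank, followed the group most closely. RPL37 (-0.295), RPS19BP1 (0.077), RPS25 (0.177) and RPL27 (0.188) followed it least, and RPL3 stood at 0.261. After quantile normalization RPL3 was at 0.585, RPL22L1 at 0.842, RPL26L1 at 0.814 and RPS27L at 0.771, while RPL27 (-0.06), RPS25 (0.13), RPS19BP1 (-0.11) and RPL37 (-0.26) remained low and RPLP0 (-0.08) and RPL34 (0.14) joined them.

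The shared level differed between single pigs. The mean of the 61 genes, each centred on its 24-pig mean, was highest in pigs 16, 8, 7 and 13 (0.26, 0.25, 0.22 and 0.20) and lowest in pigs 3, 23 and 18 (-0.22, -0.15 and -0.15). The 4 highest pigs came from 3 fats and both sexes. By fat it was -0.05 ± 0.10 with coconut oil, -0.00 ± 0.13 with olive oil, -0.02 ± 0.15 with soybean oil and 0.07 ± 0.15 with beef tallow (SD, n = 6), and by sex 0.01 ± 0.12 in barrows and -0.01 ± 0.14 in gilts (SD, n = 12). Every fat's range overlapped every other's.

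**Figure D4:**
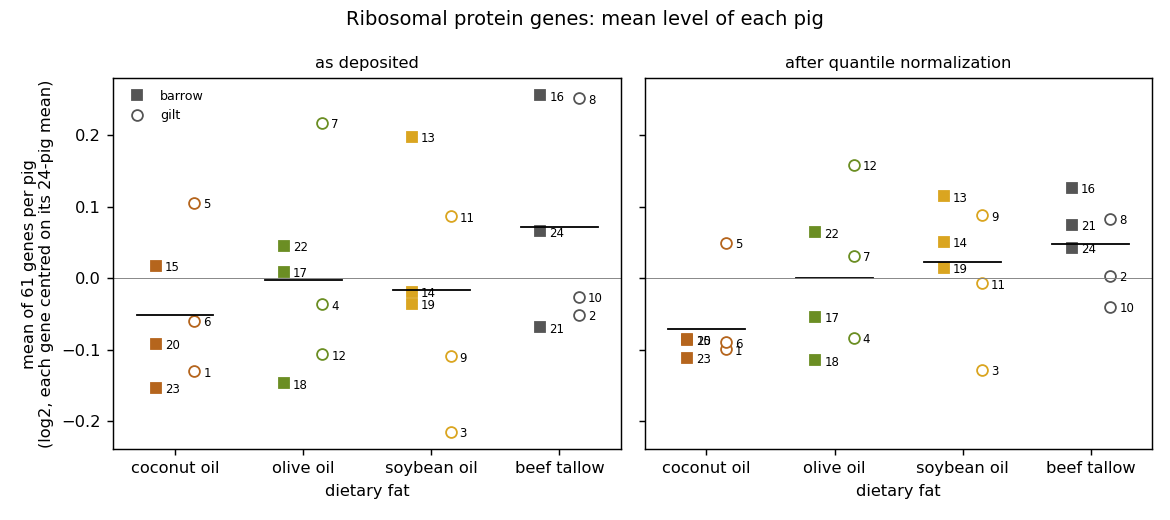
Mean of the 61 genes in each pig (vertical axis, log2, each gene centred on its 24-pig mean) by dietary fat, as deposited (left) and after quantile normalization (right); squares are barrows, circles gilts, labels pig numbers and lines the means of each fat (n = 6). As deposited, pigs 16 and 8 on beef tallow are highest and pig 3 on soybean oil lowest, and the fats overlap in both panels.

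The shared level was compared with properties of the arrays. Its correlation with the plain mean signal of the array, which is set by the brightest probe sets, was 0.694 over 24 pigs. Pigs 7 and 8 had the highest array means of all (both 939). The members help to make up the array mean, as 53 of them had mean signals above 10000. With the centred mean of the 311 other probe sets that bright, which leaves the members out, the shared level had a correlation of 0.499. Its correlation with the array median was -0.08, and with the ratios of the end probe sets of actin and GAPDH, measures of RNA integrity, 0.09 and 0.20. These are descriptions of points that share an array. After quantile normalization the highest pigs were 12, 16 and 13 (0.16, 0.13 and 0.11) and the lowest still pig 3 (-0.13), and by fat the mean was -0.07 ± 0.06 with coconut oil, 0.00 ± 0.10 with olive oil, 0.02 ± 0.09 with soybean oil and 0.05 ± 0.06 with beef tallow (SD, n = 6). On that scale 5 of 6 coconut oil pigs lay between -0.11 and -0.09, below the lowest beef tallow pig at -0.04, and pig 5 lay at 0.05.

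**Figure D5:**
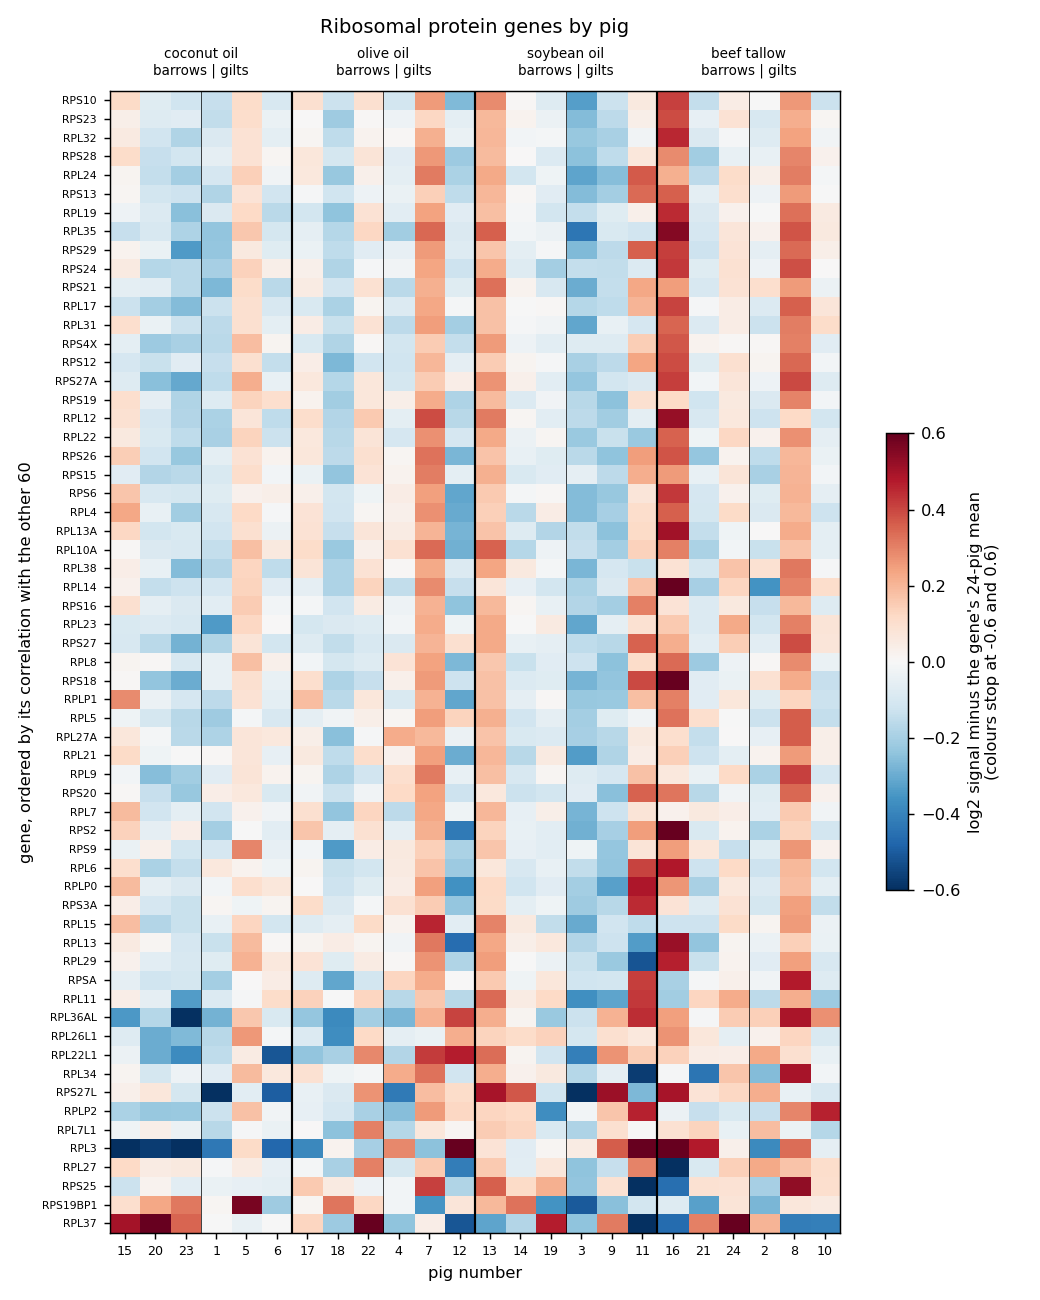
Signal of each of the 61 genes (rows) in each of the 24 pigs (columns, barrows then gilts within each fat), as log2 signal minus the gene's 24-pig mean (colour, stopping at -0.6 and 0.6). Rows run by correlation with the other members, RPS10 (0.937) at the top and RPL37 (-0.295) at the bottom; pigs 16, 8, 7 and 13 are high in most rows and pig 3 is low.

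Most members had lower mean signals with each oil than with beef tallow as deposited, and no single difference passed. For coconut oil minus beef tallow 56 of 61 differences were negative, with a median of -0.11. The 311 other probe sets with a mean signal above 10000 went the other way, with 38.9% negative and a median of 0.06. Of all probe sets 55.4% were negative, with a median of -0.04, so the members' median lay 0.08 below that of all probe sets. Centring each array on its median shifted every probe set alike, to an all-probe-set median of 0.09 and a members' median of 0.01 (29 negative), and left that gap as it was. After quantile normalization the members' median was -0.10 (53 negative), where all probe sets had 0.02. On that scale 8 members had an unadjusted p under 0.05 and none passed, where 52 of all probe sets passed. The share of all probe sets with such an unadjusted p was not counted on that scale. As deposited it was 19.9%, against 4.92% of the members (3 of 61). For olive oil minus beef tallow 54 were negative, with a median of -0.07 (all probe sets -0.04), which became -0.04 after quantile normalization (all probe sets -0.00) and 0.02 after median centring (all probe sets 0.05). For soybean oil minus beef tallow 54 were negative, with a median of -0.09 (all probe sets -0.01), which became -0.03 (all probe sets -0.00) and -0.06 (all probe sets 0.02). As deposited, 61.1% of the other bright probe sets were negative for olive oil minus beef tallow (median -0.03). For soybean oil minus beef tallow 64.3% of them were (median -0.03). These 3 comparisons share the 6 beef tallow pigs, and pig 16 was the highest of them: without it the medians were -0.06, -0.03 and -0.04. Without pigs 11, 12 and 16 they were -0.06, 0.01 and -0.10. No member was called in these alternative fits.

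Medians among the oils and between the sexes were nearer 0, and 3 of the 4 changed sign with the scaling. For olive oil minus coconut oil the members' median was 0.04 with 14 of 61 negative, against 50.8% of all probe sets (median -0.00). The count of negative members was 10 after quantile normalization, 27 after median centring and 4 without pigs 11, 12 and 16, and the median stayed above 0 in each. For soybean oil minus coconut oil the median was 0.02 with 24 negative (46.2% of all probe sets, median 0.03). It was 0.08 after quantile normalization (9 negative) and -0.08 after median centring (48 negative), a step that also moved the median of all probe sets to -0.07. For soybean oil minus olive oil the median was -0.02 with 37 negative (43.5% of all probe sets, median 0.03). It was 0.03 after quantile normalization (18 negative), -0.07 after median centring (52 negative) and -0.10 without pigs 11, 12 and 16 (54 negative). For barrow minus gilt it was 0.01 with 29 negative (53.1% of all probe sets, median -0.02), -0.00 after quantile normalization (31 negative) and 0.05 after median centring (10 negative). As deposited, 73% of the 311 other bright probe sets were negative in olive oil minus coconut oil (median -0.08). In soybean oil minus coconut oil 76.5% of them were (median -0.09). In soybean oil minus olive oil it was 58.2% (median -0.02), and between the sexes 52.7% (median -0.01). Between single pigs of a group, the members' median had a standard deviation of 0.151 as deposited. That is the spread of single pigs and not the error of a difference between groups, and the members' medians were not tested.

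Of the 32 further probe sets that name a member, 25 were tested and none passed in any comparison. The sign matched that of the chosen probe set in 16 of 25 for coconut oil minus beef tallow, 20 for olive oil minus beef tallow and 18 for soybean oil minus beef tallow. It matched in 18 for olive oil minus coconut oil, 10 for soybean oil minus coconut oil and 14 for soybean oil minus olive oil. Between the sexes it matched in 11 of 25. Most of these probe sets were dim, and some differed widely from the chosen one. A dim RPS25 probe set (mean signal 299) gave -0.42 for barrow minus gilt (adjusted p = 0.0515, chosen probe set 0.07). For coconut oil minus beef tallow it gave -0.43 (chosen -0.08). A dim RPL17 probe set gave -0.48 for soybean oil minus beef tallow (chosen -0.12). For coconut oil minus beef tallow, dim RPL6 and RPS28 probe sets gave 0.57 and 0.34, where the chosen ones gave -0.10 and -0.07. For coconut oil minus beef tallow a second bright RPL31 probe set gave -0.12 (chosen probe set -0.13), and the second RPL27 probe set described above gave -0.07 (chosen probe set 0.04). Of 2 further RPS18 probe sets, the one with a mean signal of 21694 gave -0.11 and the one with 9230 gave -0.22 (chosen probe set -0.20).

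For the near-copies, the question was whether each one and the gene it is named after varied together or against each other across pigs. Of 8 pairs considered, 4 had a probe set for both genes, and p were adjusted over the 4. RPL22 and RPL22L1 varied in the same direction (Pearson's r = 0.493, permutation p = 0.015, adjusted 0.0299; Spearman's rho = 0.499, permutation p = 0.0139, adjusted 0.0554; n = 24). The r was 0.713 in barrows, 0.437 in gilts and 0.416 without pigs 7 and 16. RPL7 and RPL7L1 gave r = 0.513 (permutation p = 0.0099, adjusted 0.0299) and rho = 0.39 (permutation p = 0.0608, adjusted 0.122), with r of 0.559 in barrows, 0.419 in gilts and 0.314 without pigs 3 and 18, so the relation rested in part on those pigs. RPS27 and RPS27L gave r = 0.26 (permutation p = 0.22, adjusted 0.294) and rho = 0.317 (permutation p = 0.13, adjusted 0.174), with 0.743 in barrows, 0.217 in gilts and 0.471 without pigs 8 and 11. RPL26 and RPL26L1 gave r = 0.0319 (permutation p = 0.883, adjusted 0.883) and rho = 0.0948 (permutation p = 0.657, adjusted 0.657), with RPL26 near background. No pair varied in opposite directions as deposited. Any 2 members had a median r of 0.622 as deposited, so an r above 0 does not set these pairs apart from other members. After quantile normalization that median was 0.38 (upper quartile 0.563). On that scale r was 0.647 for RPL22 with RPL22L1 and 0.62 for RPL7 with RPL7L1 (0.662 without pigs 4 and 12). It was 0.465 for RPS27 with RPS27L and -0.0426 for RPL26 with RPL26L1. Whether the pairs differ from other pairs of members was not tested.

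Ribosomal proteins outside the symbol rule were FAU, made as a fusion with a ubiquitin-like protein, and RACK1, a scaffold on the small subunit. FAU followed the members (correlation with their mean 0.906 over 24 pigs) and differed by -0.12 for coconut oil minus beef tallow, while RACK1 (0.589) differed by 0.09; neither passed. After quantile normalization the correlations were 0.839 for FAU and -0.15 for RACK1. Of 20 other genes whose mRNAs carry the TOP motif, most of them translation factors, 18 were tested and 0 passed in limma in any comparison. For coconut oil minus beef tallow their median was 0.00, and 2 had an unadjusted p under 0.05: VIM, which encodes the filament protein vimentin of mesenchymal cells (-0.55 ± 0.18, adjusted p = 0.098), and PABPC1, the cytoplasmic poly(A)-binding protein (-0.38, adjusted p = 0.183). EEF1A1, on a dim probe set (mean signal 944), differed by -0.09.

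Of 28 initiation factors 22 were tested and 0 passed between fats. Between the sexes 2 were higher in barrows and 0 lower: EIF2S2, a subunit of the factor that brings the initiator tRNA (0.34 ± 0.09, adjusted p = 0.035), and EIF5B, which joins the subunits (0.41 ± 0.11, adjusted p = 0.0333), against 4.83% of all probe sets called in that comparison. Of 46 ribosome assembly genes 36 were tested and 0 passed in any comparison; 5 had an unadjusted p under 0.05 for coconut oil minus beef tallow, where 27 of the 36 were positive (median 0.09) and 19.9% of all probe sets had such a p, and 8 had one in barrow minus gilt (median 0.07), where 21.1% of all probe sets did. The smallest p in those 2 comparisons were those of POLR1A, the largest subunit of RNA polymerase I (0.49 ± 0.15 for coconut oil minus beef tallow, adjusted p = 0.0893), and LTV1, an assembly factor of the small subunit (0.34 ± 0.11 for barrow minus gilt, adjusted p = 0.081). Of 23 genes of growth signalling to the ribosome 10 were tested, and 1, MYC, a transcription factor that drives ribosome production, was higher in barrows (0.42 ± 0.12, adjusted p = 0.0456); 0 passed between fats, and MTOR was not tested. The ribosomal protein genes had 0 calls in that comparison and a median of 0.01, and the difference between these lists was not tested.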

How the data were processed

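Muscle RNA of 24 pigs was measured on a 1-colour Affymetrix porcine array. The authors deposited 1 linear intensity per probe set and array. How probes were summarised is not stated in the labels, and the values themselves show scaling to a common mean after trimming 2% at each end and no quantile normalization. Analysis used log2(signal + 1). Of 23999 probe sets other than controls, 14399 were tested, those with a mean signal at or above the 40th percentile (94.1). Precision is limited by the number of pigs, since arrays hold no counts. Symbols were those of the platform annotation, and all 64 member genes matched RefSeq for assembly Sscrofa11.1.

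A linear model with 1 mean for each of the 8 combinations of fat and sex was fitted with lmFit and eBayes (limma 3.58.1, R 4.3.3). Tests were 6 pairs of fats, barrow minus gilt and 2 moderated F tests, all two-sided. Adjusted p are Benjamini-Hochberg values over all tested probe sets, called under 0.05. The fit was tested on simulated data. Correlations of near-copy pairs used permutation tests of 100000 resamples.

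The members, gene lists, pairs and tests were chosen with earlier results of these data known. Genes named were those with the smallest p in each test, the highest and lowest signals and spreads, and a fixed list of near-copies, stalk proteins and well-known members; RPS10 and RPL32 were named after their values were seen. Alternatives were other filters, quantile normalization, median centring, a pseudocount of 16, an additive model, trended and robust spread, array weights, the mean of all probe sets of a gene, only the arrays compared, leaving out pigs 11, 12 and 16, and leaving out each pig in turn.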

Additional observations from a re-analysis of the deposited data

Results flagged for a closer look

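Within each fat, the highest or lowest pig was compared with the spread of the other 5 pigs by Dixon's ratio at its 95% level. This was done for each named gene that was tested and for the mean over all members. Of 132 groups, 5 had a pig beyond that level. That share is below the 1 in 20 that chance gives, so these 5 groups are no more than chance alone would give. In each case a single pig was high. RPL35 had a signal of 21745.6 in pig 5 on coconut oil, where the next highest was 18198.3. RPS12 had 23187.7 in the same pig, where the next highest was 20678.6. RPL15 had 25706.0 in pig 7 on olive oil (next highest 20243.5), RPS24 had 31543.2 in pig 13 on soybean oil (next highest 25582.2), and RPSA had 23377.7 in pig 8 on beef tallow (next highest 17196.7). Pigs 7, 8 and 13 were among the 4 pigs with the highest mean over all members. Whether that mean has a part in these values was not tested.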

How the results depend on the processing

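Counts of called members stayed at 0 in limma under every alternative in 8 of the 9 tests. In coconut oil minus beef tallow the count was 0, and it was 1 with a filter at the 60th percentile, 1 with trended and robust spread, 2 with array weights (RPL3 and RPL36AL), and 0 to 1 without single pigs (1, RPL3, without pig 2, 7, 12 or 24). RPL3 kept its direction throughout, from -0.89 to -0.61. Array weights also raised the calls over all probe sets to 1281, against 168. The correlation of RPS27 with RPS27L was 0.465 after quantile normalization (adjusted permutation p = 0.0303), and that of RPL26 with RPL26L1 -0.0426. RPL7 in barrow minus gilt was -0.0707 with the mean of its probe sets, against 0.05. RPLP0 in olive oil minus coconut oil was 0.01 (0.0077) without pigs 11, 12 and 16, and -0.14 to 0.0077 without single pigs. The cause of these changes was not tested. No paired analysis was possible because the labels give every pig a number of its own, shared by no other group.

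Limits are the 6 pigs per fat, the unknown pens, a scaling that leaves the bright end of the arrays uneven, and dim probe sets for some members, RPL37 among them.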
